A study of Mus musculus with 8 samples.

Results

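The 34 genes described here were listed as markers of blood vessels and the meninges, the membranes that cover the brain. They were chosen by name, as the rows of the count table whose Ensembl identifier maps to one of 34 listed symbols, out of 32726 identifiers in all. The rule uses no measured value, but the list was drawn up with earlier results of these data known. All 34 had a row. They were read in cultured neurons of Nuak1 knockout (KO) and wild-type (WT) mice, with 4 libraries of each genotype. The libraries carry the replicate numbers of the labels, from KO1 to KO4 and from WT1 to WT4. NUAK1 is a protein kinase related to AMPK. Per the study, the KO is constitutive and the animals die at birth, the mice were kept on a C57Bl/6JRj background, and cortical neurons were dissociated with papain from E15.5 embryos and grown for 5 days in serum-free Neurobasal medium with B27 and N2 supplements, which all 8 libraries share. No Cre driver is named for these libraries. Per the study, the constitutive Nuak1 allele was genotyped by a LacZ band. The tissue label of every library reads cortex or hippocampus, and the cell type label reads neurons.

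Each library also has a lane label, A for KO1, KO4, WT1 and WT3 and B for KO2, KO3, WT2 and WT4, and a strain label whose meaning is not explained. The strain label is BJ for KO1, KO2 and KO3, BK for KO4, WT2 and WT4, BO for WT1 and BQ for WT3. Per the study's methods, RNA sequencing used 4 animals per condition, the number of libraries of each genotype here. The labels do not tie single libraries to animals or cultures, so the p-values below measure the spread between these libraries. Libraries held 31247078 to 67155004 counts. As the genotype labels require, Nuak1 counts were low in every KO library (86 to 102) and high in every WT library (1612 to 4598). KO1 and WT1 stood apart from the other 6 libraries in the surrogate variable used in the model, an estimate of variation that genotype does not explain. It was -0.565 in KO1 and -0.617 in WT1, against 0.0453 to 0.377 in the others.

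Brain vessels are tubes of endothelial cells joined by tight and adherens junctions. Pericytes and smooth muscle cells, together called mural cells, wrap around them, and a basement membrane of type IV collagen and laminins lies between the layers. Meningeal fibroblasts lie outside the brain surface and secrete fibrillar collagens and small proteoglycans. All of these cells can be carried along when embryonic cortex is dissociated. In a bulk library, fewer cells of a type and less RNA per cell cannot be told apart.

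Several markers of endothelial cells were at or near 0, others were low but present in every library, and several matrix genes were detected in every library. Levels are given in CPM, the counts of a gene per 1000000 counts in its library. 12 of the 34 genes stayed under 1 CPM in every library and 21 stayed under 2 CPM. 13 genes exceeded 1 CPM in every library and 8 of these exceeded 10 CPM in every library. 4 genes had at most 3 counts in every library, which is the limit that a count of 0 allows at any depth. These limits cover counting error only.

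Ly6c1, a surface protein of brain endothelium, had 0 counts in all 8 libraries. It has a near-identical paralogue, and only uniquely aligned reads were counted, so its value is uncertain. Cldn5, the main tight junction protein of brain vessels, had 5 counts over 346039327 counts in all libraries together. Tie1, an endothelial receptor kinase, had 3 counts in all. Cdh5, the endothelial cadherin of adherens junctions, had 9 counts, 5 of them in KO4. Tek, the angiopoietin receptor, had 30 counts in all and at most 9 in a library. Flt1, a receptor for vascular endothelial growth factor (VEGF), had 56 counts and at most 21 in a library. For 6 of the 10 genes listed as endothelial the counts were thus too low for the test.

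3 other endothelial genes gave low but repeatable counts. Pecam1, an adhesion protein of endothelial and some blood cells, lay between 0.840 and 1.45 CPM. Kdr, the main VEGF receptor, lay between 0.421 and 0.768 CPM. Esam, an endothelial adhesion molecule, lay between 0.517 and 1.68 CPM. Summed without Slc7a5, the endothelial genes gave 2.07 to 4.03 CPM in the KO and 2.45 to 3.63 CPM in the WT libraries. The genotypes overlapped.

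Slc7a5, which was listed as endothelial, went against that label. It encodes a transporter of large neutral amino acids that is rich at the blood-brain barrier but is also made by other cells, neurons among them. It had 120, 427, 359 and 251 CPM in KO1 to KO4 and 187, 337, 560 and 447 CPM in WT1 to WT4. Each of these values is above 100 CPM, whereas the other endothelial genes stayed under 2 CPM. Cspg5, or neuroglycan C, was listed with the mural genes and is a proteoglycan known from neurons and glia. It had 333, 394, 417 and 338 CPM in KO1 to KO4 and 317, 391, 389 and 354 CPM in WT1 to WT4. Its highest library exceeded its lowest by a factor of 1.32, the smallest ratio among the 34 genes for which one could be formed.

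These 2 genes carried most of the counts of the list. Together they made up 57.7% (KO1) to 75.8% (WT3) of all counts of the 34 genes. Fn1 and Sparc added 9.90% to 24.9%, and Col4a1 and Col4a2 added 6.95% to 12.4%. All 6 genes together held 89.0% to 94.4%. The summed level of the 34 genes was 785, 1228, 1236 and 977 CPM in KO1 to KO4 and 812, 1169, 1252 and 1213 CPM in WT1 to WT4. The sum was lowest in KO1 and WT1 and overlapped between the genotypes.

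Per exon length the groups of the list differed widely in level. The unit here is RPKM, the CPM divided by the exon length in kb, averaged over the 8 libraries, on exon lengths of an earlier mouse annotation. The median gene level was 0.0156 RPKM for the endothelial genes, 0.0128 for the regulators, 0.0960 for the fibrillar collagens and 0.258 for the mural genes. It was 4.17 RPKM for the type IV and VI collagens and 5.10 for the matrix proteins. Neuron markers had a median of 66.3 RPKM, markers of oligodendrocyte precursors 24.4 and astrocyte markers 16.0. Microglia markers had a median of 0.866 RPKM, choroid plexus markers 0.0637 and red blood cell markers 0.0157. Among the 34 genes only Slc7a5 at 95.6 RPKM, Cspg5 at 94.7 and Sparc at 21.9 exceeded the median of the astrocyte markers.

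**Figure D1:**
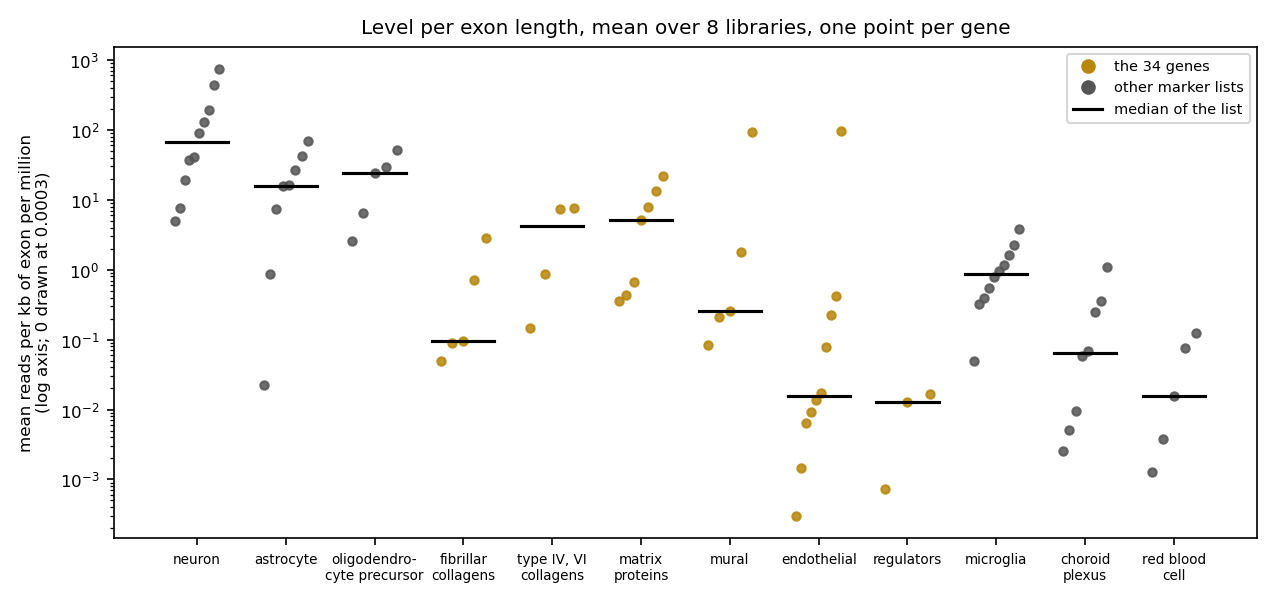
Level per exon length, in RPKM (CPM per kb of exon) averaged over 8 libraries (log axis, genes at 0 drawn at 0.0003), with 1 point per gene and a black line at the median of each list. The endothelial genes have a median of 0.0156 against 66.3 for the neuron markers, and 1 endothelial gene (Slc7a5, 95.6) lies far above the rest of its list.

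Among the fibrillar collagens, which form the fibres of loose connective tissue, the type V chains were the more abundant per exon length. Col5a1, which helps to start fibres, had 24.9, 31.0, 30.7 and 19.2 CPM in KO1 to KO4 and 28.3, 24.1, 18.1 and 15.5 CPM in WT1 to WT4. Its 2 highest libraries were KO2 and KO3, and the genotypes overlapped. Col5a2, its partner chain, had 6.52, 5.17, 6.81 and 5.36 CPM in KO1 to KO4 and 9.22, 6.61, 9.82 and 4.84 CPM in WT1 to WT4. The WT libraries held both its highest and its lowest value.

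2 chains made by fibroblasts, Col1a2 and Col3a1, were close to absent in 2 libraries, 1 of each genotype. Col1a2, a chain of type I collagen, gave 40, 32, 47 and 0 counts across KO1 to KO4. Across WT1 to WT4 it gave 17, 36, 1 and 28 counts. KO4 and WT3 thus held 1 count between them, against 17 to 47 in each of the other 6 libraries. Col3a1, which forms type III collagen, gave 63, 36, 48 and 2 counts across KO1 to KO4. Across WT1 to WT4 it gave 25, 35, 2 and 48 counts. KO4 and WT3 were again the lowest, with 2 counts each. Col1a1, the other type I chain, was lowest in the same libraries, at 0.247 CPM (10 counts) in KO4 and 0.336 CPM (16 counts) in WT3 against 0.480 to 1.03 CPM in the others. Its highest library exceeded its lowest by a factor of 4.15, the largest ratio among the fibrillar collagens for which one could be formed.

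Igfbp7, a secreted protein that binds insulin-like growth factors and is found around vessels, and Sparc, a collagen-binding matrix protein made by fibroblasts, endothelial cells and glia, had the same 2 lowest libraries. Igfbp7 had 0.661, 1.39, 1.38 and 0.544 CPM in KO1 to KO4 and 0.928, 0.566, 0.126 and 0.869 CPM in WT1 to WT4. KO4 was only just below WT2, so for this gene the separation rested on WT3, which had 6 counts. Its 11-fold range was the largest among the matrix proteins. It shares 7.01% of its exon length with Polr2b on the opposite strand. Sparc had 97.8, 104, 119 and 37.1 CPM in KO1 to KO4 and 66.6, 56.5, 33.1 and 76.1 CPM in WT1 to WT4. KO4 and WT3 were the lowest, and KO1, KO2 and KO3 were above every WT library. Acta2, the actin of smooth muscle, was also at 0 counts in KO4 and WT3, but it was at 0 in WT1 as well and had 52 counts in all.

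Of the 24 genes that entered the test, 5 had KO4 and WT3 as their 2 lowest libraries, namely Col1a1, Col1a2, Col3a1, Igfbp7 and Sparc. Summed astrocyte markers were also lowest there, at 860 CPM in KO4 and 913 in WT3 against 1166 to 1661 in the other 6. All 3 of KO4, WT3 and WT1 had few counts of microglia markers, with 4.0, 4.89 and 4.99 CPM, against 9.13 to 50.7 CPM in the others. Summed neuron markers spanned 6426 to 7346 CPM, with KO4 at 7290 and WT3 at 7346. Whether these lists have a part in the collagen values was not tested. Both libraries were on lane A, as were KO1 and WT1. The strain labels of KO4 and WT3 differ. How many of all tested genes had KO4 and WT3 as their 2 lowest libraries was not counted.

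The bases before the starts of these genes are printed to show what can and cannot be seen to be shared there. They are the 150 bases upstream of the start in RefSeq (build GRCm38.p6), written 5′ to 3′ on the strand of the gene. Capitals mark a match on either strand to 1 of 3 common promoter motifs. These are the TATA box, searched as TATAAA, the CCAAT box, searched by the letters in its name, and the GC box, searched as GGGCGG. No matches overlapped. Col1a2 is shown from chr6:4505468-4505617 on the plus strand, Col3a1 from chr1:45311388-45311537 on the plus strand, Igfbp7 from chr5:77408046-77408195 on the minus strand and Sparc from chr11:55420081-55420230 on the minus strand.
Col1a2: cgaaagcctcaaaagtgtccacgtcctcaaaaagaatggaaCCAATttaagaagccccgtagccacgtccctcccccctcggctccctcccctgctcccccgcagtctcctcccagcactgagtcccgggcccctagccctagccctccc
Col3a1: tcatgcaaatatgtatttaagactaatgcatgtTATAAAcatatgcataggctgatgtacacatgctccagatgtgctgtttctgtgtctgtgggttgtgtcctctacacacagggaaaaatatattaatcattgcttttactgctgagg
Igfbp7: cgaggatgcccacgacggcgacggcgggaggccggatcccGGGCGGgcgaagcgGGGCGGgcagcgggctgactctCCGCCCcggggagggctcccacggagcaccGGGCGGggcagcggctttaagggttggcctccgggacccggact
Sparc: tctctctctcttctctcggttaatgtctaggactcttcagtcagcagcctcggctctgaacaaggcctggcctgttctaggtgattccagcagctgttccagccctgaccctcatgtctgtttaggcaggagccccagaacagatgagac
No motif was found in all 4 windows. Col1a2 had a CCAAT box 109 to 105 bases before the start, Col3a1 a TATA box 117 to 112 bases before it, and Igfbp7 4 GC boxes, the nearest beginning 44 bases before it. Sparc held none of the 3. Over 32851 windows of the same length, 24.5% held a CCAAT box, 7.57% a TATA box and 28.6% a GC box by the same search. A match is a description of letters only. 22 of the 34 genes had a window in the table, Col1a1 not among them.

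The type IV collagens, the network of basement membranes, had another pattern, with KO1 and WT1 the lowest. Col4a1 had 29.9, 53.3, 67.4 and 61.3 CPM in KO1 to KO4 and 33.9, 64.5, 50.7 and 59.9 CPM in WT1 to WT4. Col4a2 had 24.7, 49.3, 59.9 and 59.6 CPM in KO1 to KO4 and 28.1, 59.6, 59.4 and 55.1 CPM in WT1 to WT4. For both genes KO1 and WT1 were well apart from the other 6 libraries, whose lowest values were 50.7 CPM for Col4a1 and 49.3 CPM for Col4a2.

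The 2 genes lie head to head on chromosome 8, Col4a1 at chr8:11198423-11312889 on the minus strand and Col4a2 at chr8:11312805-11449287 on the plus strand. These extents overlap by 85 bases. The starts on which the promoter windows are set lie closer, so that the transcripts from them share 22 bases, at chr8:11312805-11312826. They are printed here on the plus strand, with a GC box in capitals.
Col4a1-Col4a2 start overlap: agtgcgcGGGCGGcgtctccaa
These bases are 0.323% of the exon length of Col4a1 and 0.332% of that of Col4a2. Whether the counting used strand is not stated.

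The ratio of the 2 type IV chains was steady. Col4a1 over Col4a2 was 1.11 ± 0.0778 (SD, n = 4) in the KO and 1.06 ± 0.148 (SD, n = 4) in the WT libraries, and lay between 0.853 in WT3 and 1.21 in KO1. An exact two-sided permutation test of the log2 ratio gave p = 0.629, and 0.629 after Benjamini-Hochberg (BH) adjustment over the 3 chain ratios. The smallest p that 4 against 4 libraries allow is 0.0286.

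The other chain pairs varied more. Col5a1 over Col5a2 was 4.47 ± 1.09 (SD, n = 4) in the KO and 2.94 ± 0.773 (SD, n = 4) in the WT libraries. The lowest KO ratio, 3.57, was below the highest WT ratio, 3.64, so the genotypes overlapped. The exact permutation p was 0.0571, and 0.171 after BH adjustment. Col6a1 over Col6a2, both chains of the fine filaments of type VI collagen, was 4.77 ± 3.29 (SD, n = 4) in the KO and 2.04 ± 0.766 (SD, n = 4) in the WT libraries, with a range from 1.04 in WT4 to 8.81 in KO1. The exact permutation p was 0.2, and 0.3 after BH adjustment.

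**Figure D2:**
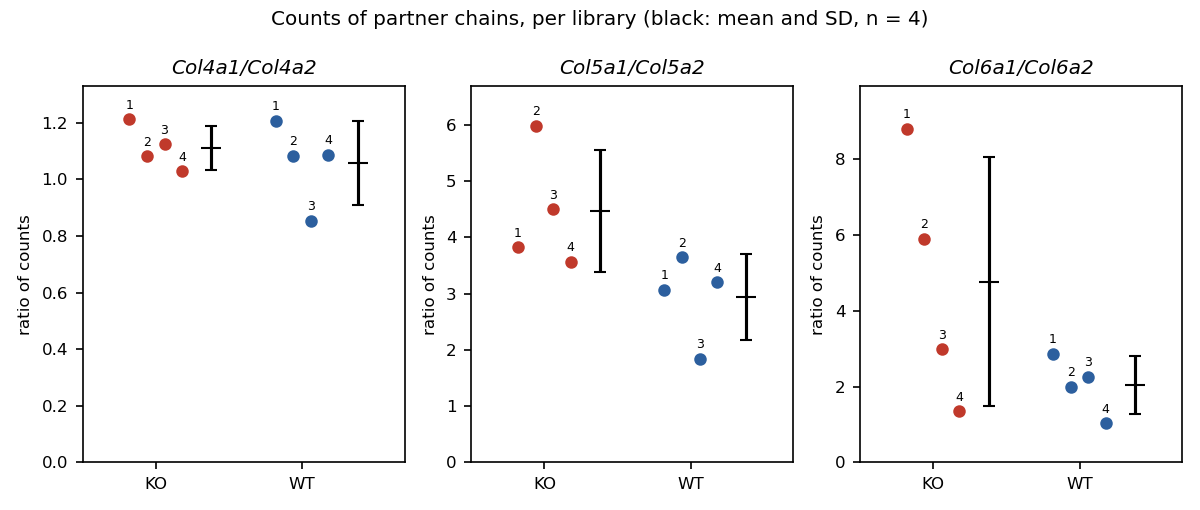
Ratio of the counts of partner collagen chains in each library (y axis, linear from 0), with KO and WT libraries on the x axis, replicate numbers above the points and black bars for the mean and SD (n = 4). Col4a1/Col4a2 stays between 0.853 and 1.21, whereas Col6a1/Col6a2 spans 1.04 to 8.81.

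The type IV pair shared its 2 lowest libraries with 4 other genes, Col6a2, Fbln1, Cspg5 and Slc7a5. KO1 and WT1, on lane A like KO4 and WT3, also stood apart in the surrogate variable. How many of all tested genes have this pair was not counted. Fbln1, a glycoprotein of elastic fibres and basement membranes, had 14.8 CPM in KO1 and 12.7 CPM in WT1 and 22.4 to 27.7 CPM in the other 6 libraries. Col6a2 had 0.776 CPM in KO1 and 0.512 CPM in WT1, against 0.983 to 1.94 CPM in the others. For Cspg5 the step was small, since KO1 lay at 333 CPM and KO4 at 338 CPM. Postn, a matrix protein of fibroblasts, had the opposite order, with 5.26 CPM in KO1 and 6.18 CPM in WT1 against 1.91 to 4.11 CPM in the others. The genes of the list therefore did not share a single order of libraries. Among 30 genes with more than 3 counts in at least 1 library, the lowest library was often on lane A. It was KO1 for 5 genes, KO4 for 4, WT1 for 5 and WT3 for 8. On lane B it was KO2 and KO3 for 0, WT2 for 2 and WT4 for 3, and 3 genes were tied. The share over all tested genes was not counted, and a part of lane was not tested.

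The remaining matrix proteins followed neither order. Fn1, the fibronectin of vessel walls and loose connective tissue, had 97.6, 96.3, 94.5 and 140 CPM in KO1 to KO4 and 91.3, 159, 90.8 and 116 CPM in WT1 to WT4. Its highest libraries were WT2 and KO4, which carry the strain label BK, and WT4 of the same label came next. Dcn, or decorin, a small proteoglycan that binds collagen fibres, had 7.85, 8.01, 16.8 and 19.3 CPM in KO1 to KO4 and 17.0, 19.1, 4.76 and 30.1 CPM in WT1 to WT4. Its lowest and its highest library were both WT. Lum, or lumican, its relative, had 0.168 CPM in WT3 and 0.607 to 1.06 CPM in the other 7 libraries.

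Pdgfrb, the receptor by which pericytes are recruited, was the most abundant mural gene after Cspg5. It had 4.60, 14.9, 16.5 and 9.47 CPM in KO1 to KO4 and 6.40, 9.49, 1.99 and 14.6 CPM in WT1 to WT4. Its 8.30-fold range between WT3 and KO3 was the widest among the mural genes for which a ratio could be formed (not Acta2), and each genotype held high and low libraries. Rgs5, a pericyte regulator of G protein signalling, lay between 0.581 and 1.93 CPM. Tagln, a smooth muscle protein that binds actin, lay between 0.208 and 0.546 CPM. 4.10% of its exon length is shared with Pcsk7 on the opposite strand, so strand use in the counting bears on it. Without Cspg5 the mural genes summed to 7.30 to 18.5 CPM in the KO and 3.90 to 16.3 CPM in the WT libraries.

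The regulators were almost undetected. Foxc1, a transcription factor of meningeal and mural development, had 22 counts in all, 7 of them in KO1 and 8 in WT3. Twist1, a mesenchymal transcription factor, had 8 counts in all. Igf2, a growth factor made by meninges and choroid plexus, had 1 count. WT3, which was among the lowest for Col1a2 and Col3a1, thus held the most counts of Foxc1 and Twist1, at 8 and 4. In CPM, Foxc1 was higher in KO1 (0.201) than in WT3 (0.168).

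**Figure D3:**
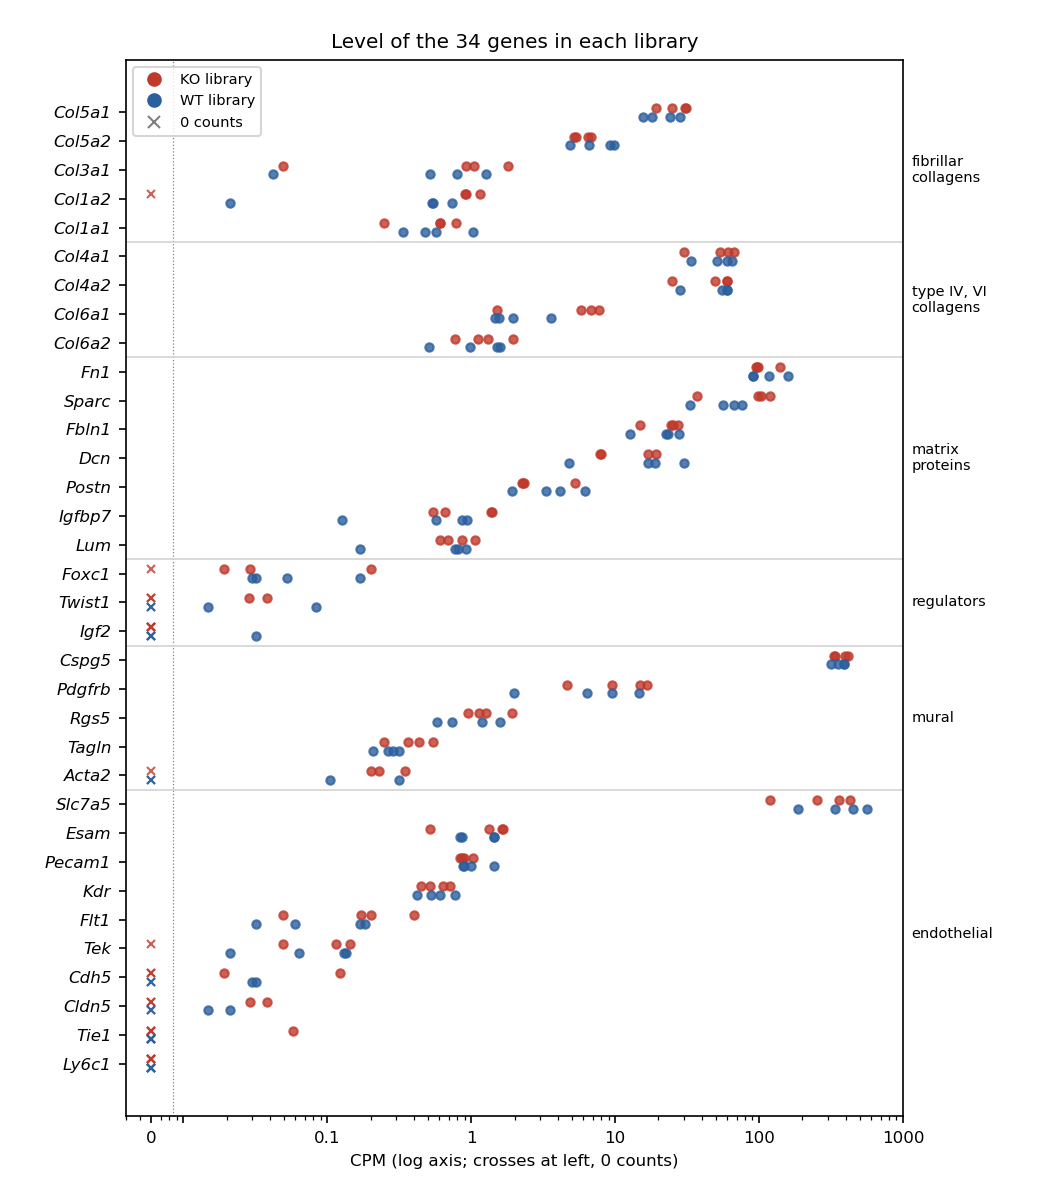
Level of each of the 34 genes in each library in CPM (log axis, crosses at the left for 0 counts), with KO libraries in red and WT libraries in blue, grouped by role. KO and WT points overlap for every gene that entered the test, and most endothelial genes and the regulators lie below 1 CPM.

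KO was then compared with WT over the whole table, to ask which transcripts differ when NUAK1 is missing. 24 of the 34 genes passed the filter on low counts, among 16272 genes tested. The 10 that did not were Foxc1, Twist1, Igf2, Acta2, Cldn5, Cdh5, Flt1, Tek, Tie1 and Ly6c1. None of the 24 passed a BH-adjusted threshold of 0.05 in edgeR's quasi-likelihood test, where 0.0492% of all tested genes did. At an unadjusted p under 0.05 there was 1 of 24, Col6a1, where the share among all tested genes was 10.5% in either direction and 4.71% with KO higher. DESeq2 also called none of them, with 3 at an unadjusted p under 0.05 (Col6a1, Postn and Slc7a5), where 1.01% of all genes passed the adjusted threshold and 9.53% the unadjusted p. For none of the 24 were the CPM values of KO and WT libraries free of overlap, where 2.4% of all tested genes were. For 22 of the 24 the difference of the mean CPM was smaller than the larger of the 2 SDs, and the share of all tested genes for which this holds was not counted.

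The median log2 fold change of the 24 genes, KO minus WT, was 0.09, beside 0.01 over all tested genes. The fitted value was above 0 for 14 genes and below 0 for 10, where it was above 0 for 53.4% of all tested genes. By group the median was 0.26 for the 5 fibrillar collagens, 0.09 for the 4 type IV and VI collagens, 0.08 for the 7 matrix proteins, 0.37 for the 4 mural genes tested and -0.14 for the 4 endothelial genes tested. 1 endothelial gene of those 4 was above 0, and all 4 mural genes were, of which Cspg5, at 0.001, turned to -0.0057 with DESeq2's size factors. None of these group values carries a test.

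Col6a1 had the largest fitted difference. It had 6.84, 7.69, 5.79 and 1.51 CPM in KO1 to KO4 and 1.47, 1.97, 3.61 and 1.55 CPM in WT1 to WT4. KO1 to KO3 were above every WT library, and KO4 was level with the lowest WT libraries. The means were 5.46 ± 2.75 CPM (SD, n = 4) in the KO and 2.15 ± 0.996 CPM (SD, n = 4) in the WT. The log2 fold change was 1.29 (SE 0.51) with an adjusted p of 0.447 in edgeR's quasi-likelihood test with BH adjustment. The 5.22-fold range of Col6a1 was the widest among the type IV and VI collagens.

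Col6a1 is next given by strain label. The 3 libraries labelled BJ, all KO, had 5.79 to 7.69 CPM. The 3 labelled BK, which are KO4, WT2 and WT4, had 1.51 to 1.97 CPM. The ranges of BJ and BK did not overlap. WT1, labelled BO, had 1.47 CPM and WT3, labelled BQ, had 3.61 CPM. BJ occurs only in KO libraries, so for these 3 libraries genotype and strain label cannot be told apart. With the strain label as a term, a contrast that rests on KO4 against WT2 and WT4, the log2 fold change of Col6a1 was -0.25 and that of Sparc -0.85. Col6a1 lies at chr10:76708792-76726044 (GRCm38.p6), 7.64 Mb from Nuak1, which is at chr10:84370900-84440668. Col6a2 lies 7.75 Mb from Nuak1, Dcn 13.0 Mb and Lum 13.1 Mb. Dcn had 7.85 to 16.8 CPM in the BJ libraries and 19.1 to 30.1 CPM in the BK libraries, which do not overlap either and run the other way from Col6a1. The ranges of Col6a2 (0.776 to 1.94 CPM in BJ, 0.983 to 1.5 CPM in BK) and of Lum overlapped. Over the whole list, 7 of the 24 tested genes had BJ and BK libraries free of overlap, where 14.2% of all tested genes did. BJ was higher for Col1a2, Col5a1, Col6a1, Sparc and Tagln and lower for Fn1 and Dcn. These counts were added after the data were seen and carry no test.

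Within lane B, where both KO libraries are labelled BJ and both WT libraries BK, 2 genes of the list passed the adjusted threshold, where 0.588% of all tested genes did. These were Col6a1 with a log2 fold change of 1.84 (edgeR, adjusted p = 0.00243) and Sparc with 0.69 (edgeR, adjusted p = 0.0413). In lane A none did, the log2 fold change being 0.70 for Col6a1 and 0.40 for Sparc, where 0.0% of all tested genes passed. A test of the difference between the lanes called no gene in edgeR, and 1.57% of all tested genes had an unadjusted p under 0.05 there. In the list only Fn1 had such a p (edgeR, unadjusted p = 0.0261). Its log2 fold change was 0.36 in lane A and -0.60 in lane B.

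The other abundant genes of each group gave small or uncertain differences. Sparc had a log2 fold change of 0.58 (SE 0.34), Pdgfrb of 0.40 (SE 0.56) and Col5a1 of 0.26 (SE 0.20), with edgeR adjusted p-values of 0.579, 0.834 and 0.673. Col5a2 had -0.39 (SE 0.22) and Slc7a5 -0.39 (SE 0.22), with edgeR adjusted p-values of 0.555 and 0.562. Fn1 had -0.13 (SE 0.21) and Esam 0.10 (SE 0.30). Cspg5 was at 0.00 (SE 0.08), Col4a2 at -0.09 (SE 0.09) and Col4a1 at -0.03 (SE 0.13).

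**Figure D4:**
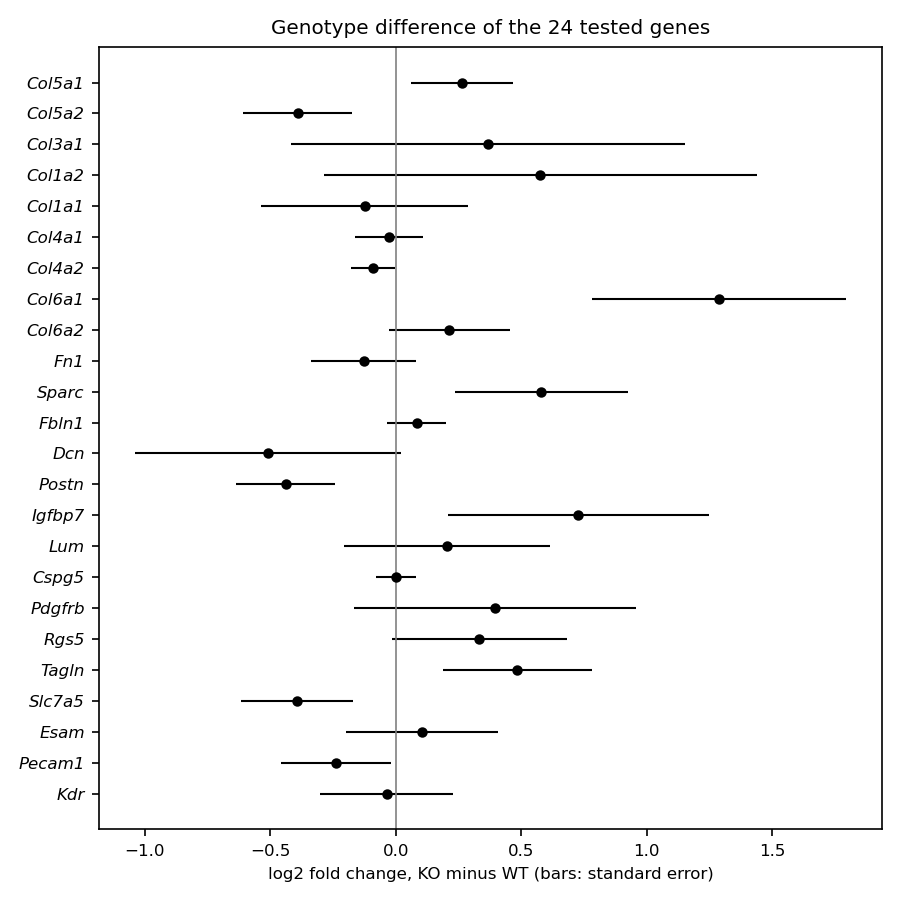
Log2 fold change, KO minus WT, of the 24 tested genes in edgeR with 1 surrogate variable (x axis), with bars for the standard error. None passes the adjusted threshold. Col6a1 lies farthest from 0 at 1.29, and Cspg5 lies at 0.00.

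The plot of levels as a percentage of the highest library sets both library patterns side by side. 6 of the 24 tested genes were lowest in KO1 and WT1, 5 in KO4 and WT3, and 3 (Dcn, Pdgfrb and Esam) in KO1 and WT3. All of these libraries are on lane A. Pecam1 (KO1 and KO4), Col6a1 (KO4 and WT1) and Fn1 (WT1 and WT3) also had both lowest libraries on lane A. The other tested genes had a lane B library among their 2 lowest. Whether lane has a part in these lows was not tested. 6 genes had KO2 and KO3 as their 2 highest libraries, namely Col5a1, Igfbp7, Sparc, Pdgfrb, Cspg5 and Esam. Summed microglia markers were also highest in KO3 (50.7 CPM) and KO2 (33.4 CPM), and their part in these values was not tested. For none of these pairs of libraries was the share of all tested genes counted, so none is shown to be particular to this list.

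**Figure D5:**
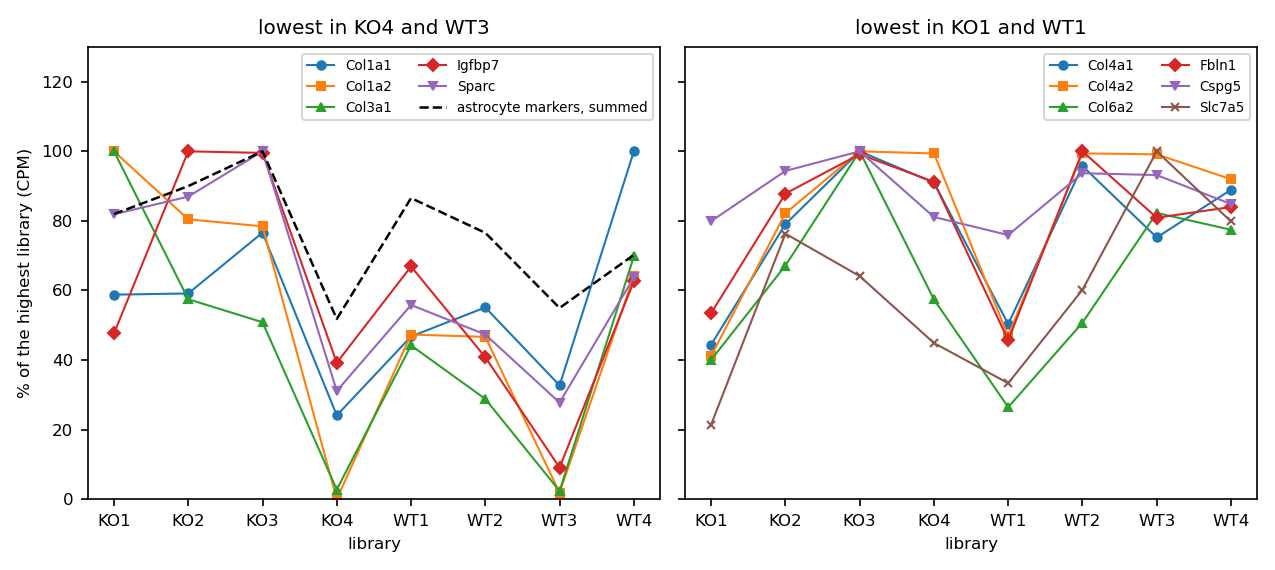
CPM of 11 genes in each library as a percentage of the gene's highest library. The left panel holds the 5 genes lowest in KO4 and WT3, with summed astrocyte markers dashed, and the right panel the 6 genes lowest in KO1 and WT1. Each pair of low libraries has 1 KO and 1 WT library, and both pairs are on lane A.

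Further genes listed for the same cell types were read as well. In bulk libraries their cells of origin cannot be told. Of 20 other endothelial genes 7 were tested and none passed the adjusted threshold in edgeR, and 6 had at most 3 counts in every library. The 3 most abundant were Mfsd2a, a lipid transporter of brain vessels, at 18.0 ± 2.92 CPM in the KO and 17.4 ± 3.90 CPM in the WT (SD, n = 4), Itm2a at 12.3 ± 0.337 and 12.6 ± 2.63 CPM, and the glucose transporter Slc2a1 at 6.27 ± 2.38 and 7.36 ± 2.74 CPM. Of 15 other mural genes 7 were tested, with Notch3, a receptor of mural cells, the most abundant at 17.0 ± 4.73 and 16.1 ± 5.93 CPM (SD, n = 4). Of 20 other fibroblast genes 12 were tested, with Cemip at 29.5 ± 2.58 and 32.5 ± 4.91 CPM (SD, n = 4) the most abundant. None of these passed the adjusted threshold in edgeR or in DESeq2. At an unadjusted p under 0.05 there was 1 gene in edgeR, Cnn2 of the mural list (log2 fold change -0.45, named after its value was seen), and 0 in DESeq2.

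The machinery that makes and cross-links collagen had a median level of 1.90 RPKM, beside 0.0960 RPKM for the fibrillar collagens. Of 15 genes listed 14 were tested. The fitted log2 fold change was above 0 for 10 and below 0 for 4, with a median of 0.08. Over all tested genes 53.4% were above 0. None passed the adjusted threshold and none had an unadjusted p under 0.05, in edgeR or in DESeq2. Bmp1, the protease that trims procollagens, had 57.9 ± 15.2 CPM in the KO and 52.4 ± 16.7 CPM in the WT (SD, n = 4). Serpinh1, the collagen chaperone, had 36.1 ± 10.7 and 40.5 ± 14.3 CPM (SD, n = 4). The 10 other basement membrane genes were all tested, 2 above and 8 below 0, with a median of -0.04, and none passed the adjusted threshold in edgeR or in DESeq2. 1 had an unadjusted p under 0.05 in edgeR, Hspg2 (perlecan), with a log2 fold change of -0.48, named after its value was seen. Agrn, or agrin, which neurons make as well, was the most abundant of them at 521 ± 135 and 534 ± 149 CPM (SD, n = 4).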

How the data were processed

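Poly-A RNA was sequenced in 4 KO and 4 WT libraries of cultured neurons. The deposited table holds whole-number counts of reads for each Ensembl gene, neither normalized nor pooled. To make it, the authors trimmed reads with Cutadapt 1.10, discarded ribosomal RNA reads, aligned the rest to mm10 with STAR 2.5.3a and counted unique alignments with HTSeq-count 0.6.1p1 in union mode. Reads of genes with a near-identical copy are lost by this. Read length and layout differ between the labels and the methods, and strand use in counting is not stated. Of 32726 identifiers, 23260 matched a RefSeq symbol.

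Genotypes were compared with edgeR 4.0.16 (R 4.3.3), after a filter on low counts (filterByExpr) and TMM scaling. The robust quasi-likelihood test was run with 1 surrogate variable from svaseq (sva 3.50.0) and BH adjustment over all 16272 genes tested, as the study modelled surrogate variables. Its hypothesis weighting was not used. The SE is the absolute log2 fold change divided by the square root of F. CPM and RPKM were computed from the counts, RPKM on GENCODE exon lengths of build NCBIM37 matched by gene. Coordinates and promoters are from RefSeq tables of GRCm38.p6. Scripts were tested on simulated data.

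The genes and lists were chosen with earlier results of these data known. All 34 genes are given with their values. Fold changes are given for the 2 most abundant tested genes of each role, and for genes at an unadjusted p under 0.05. One is also given for Postn, chosen after its value was seen. Of other lists, up to 3 of the most abundant genes are named with their levels. Of 7 red blood cell markers 5 had a row and none was tested, and of 8 choroid plexus markers 4 were tested with no call. Of 10 microglia, 8 astrocyte, 5 oligodendrocyte precursor and 10 neuron markers, 9, 7, 5 and 10 were tested, also with no call. Alternatives covered surrogate variables, lane, strain label, a replicate block, DESeq2 1.42.0, scaling, filtering and leaving out libraries.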

Additional observations from a re-analysis of the deposited data

Results flagged for a closer look

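Of 74 groups of 4 libraries, 7 held a library far from the other 3 by Dixon's test at the 95% level, where chance gives about 3.7 (1 in 20). The groups are not independent, since summed levels stand beside their own genes, and some hold few counts. The comparison therefore cannot show an excess. Col4a2 had 28.1 CPM in WT1 and 55.1 to 59.6 CPM in the other WT libraries. Fn1 had 140 CPM in KO4 and 94.5 to 97.6 CPM in the other KO libraries. Postn had 5.26 CPM in KO1 and 2.24 to 2.31 CPM in the other KO libraries. Foxc1 had 0.201 CPM in KO1, which is 7 counts, against 0 to 0.0289 CPM in the other KO libraries. It had 0.168 CPM in WT3, which is 8 counts, where the other WT libraries had 0.0298 to 0.0526 CPM. Foxc1, Twist1 and Igf2 summed to 0.252 CPM in WT3 and 0.0447 to 0.064 CPM in the other WT libraries. Cdh5 had 0.124 CPM in KO4, which is 5 counts, against 0 to 0.0192 CPM in the other KO libraries.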

How the results depend on the processing

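No gene of the list passed the adjusted threshold under any alternative fitted except lane B alone, where 2 did. 1 gene had an unadjusted p under 0.05 with 1 surrogate variable. The counts below stand beside the share of all tested genes with such a p. There were 2 genes with 2 surrogate variables (15.7%), 2 with DESeq2's size factors (10.2%), 2 with the replicate block (7.17%) and 3 with DESeq2 (9.53%). Lane B alone gave 5 (11.2%), lane A alone 0 (0.591%), and leaving out KO1 and WT1 together 0 (4.05%). Leaving out 1 library gave 0 genes (without KO3, 6.94%, or WT2, 8.95%) to 6 genes (without WT3, 15.8%), and 2 without KO4 (9.85%). Col6a1 had an unadjusted p under 0.05 in 8 of the 19 alternatives, Postn in 7 and the others in fewer. With 1 surrogate variable Postn had a log2 fold change of -0.44 (SE 0.20), lower in the KO. Its edgeR p was 0.0515 unadjusted and 0.477 adjusted. The 4 genes under the strain label term were Col1a1, Col1a2, Col3a1 and Sparc. Whether the replicate numbers pair the libraries is not stated. The correlations of deviations between equal numbers, in the order of the numbers, were 0.80, 0.012, 0.25 and 0.0023. The first, of KO1 with WT1, was the highest between any KO and WT library, and these values cannot settle the question.

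The median log2 fold change of 0.09 became -0.20 once the strain label was in the model, where the contrast rests on KO4 against WT2 and WT4. It lay between -0.046 and 0.16 with 1 library left out. Without Slc7a5, Cspg5 and Sparc, an alternative chosen after seeing the data, it was 0.10. Signs changed as follows. With the strain label, Col5a1 was -0.076, Col4a2 0.037, Col6a1 -0.25, Fn1 0.0031, Sparc -0.85, Pdgfrb -0.35, Esam -0.13 and Cspg5 -0.16. In lane A, Col5a1 was -0.10, Col4a1 0.097, Fn1 0.36 and Cspg5 -0.088. Without KO1 and WT1, Col4a1 was 0.020 and Cspg5 -0.017. With 2 surrogate variables Esam was -0.097. Cspg5, at 0.001, was -0.0067 with none, -0.0066 with 2, -0.0022 with a lane term, -0.0062 with the replicate block, -0.0057 with DESeq2's size factors, -0.0064 with DESeq2 and -0.0023 without the filter. With 1 library left out, Col4a1 ranged from -0.15 to 0.060, Fn1 from -0.28 to 0.078, Pdgfrb from -0.025 to 0.80, Cspg5 from -0.037 to 0.057 and Esam from -0.14 to 0.35. Without a change of sign, Sparc ranged from 0.31 to 0.82, Col5a1 from 0.13 to 0.41, Col5a2 from -0.56 to -0.18, Slc7a5 from -0.64 to -0.25, Col4a2 from -0.15 to -0.022 and Col6a1 from 0.95 to 1.71. The causes were not tested. Calls among all genes ranged from 0 in lane A to 165 with DESeq2, against 8.

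At these depths the 10 untested genes had too few counts for a genotype comparison.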
